A study of Equus caballus with 8 samples.

Results

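The genes described here encode the TGF-β ligands (TGFB1, TGFB2 and TGFB3) and the latent TGF-β binding proteins (LTBP1, LTBP2, LTBP3 and LTBP4). They were taken by their symbols from the 15266 named genes of the expression table, and all 7 had a row and passed the filter on low values. The BM-MSCs (mesenchymal stem cells, adherent stromal cells grown here from bone marrow) came from 4 horses with the letters D, J, L and W. Marrow cells of each horse were divided, and 1 part was grown without and 1 part with 1 ng/ml human recombinant TGF-β2, up to passage 3 or 4. The labels describe this exposure as starting at isolation, and the study's methods as lasting 3 passages. Both cultures received low glucose DMEM with fetal bovine serum, antibiotics and, according to the study's methods, basic fibroblast growth factor. There were thus 4 untreated and 4 TGF-β2-treated libraries of poly(A)-selected RNA, with 1 library per horse and condition. The cells were primary cultures and not a clone, and the cultures were pools of whatever adherent cells each aspirate gave.

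TGF-β is made as a precursor whose propeptide, the latency-associated peptide, stays wrapped around the mature cytokine and keeps it from its receptors. In the endoplasmic reticulum this small latent complex is usually joined by disulfide bonds to an LTBP, which is secreted with it and is laid down on fibronectin and fibrillin microfibrils. The store in the matrix is later opened by integrins that pull on the propeptide, by proteases, or by thrombospondin-1. LTBP1 and LTBP3 bind the latent forms of all TGF-β isoforms, LTBP4 binds that of TGF-β1 weakly, and LTBP2 does not bind latent TGF-β. The propeptides of TGF-β1 and TGF-β3 carry an RGD motif for integrins, which that of TGF-β2 lacks. Mesenchymal stem cells are known to secrete TGF-β and a fibrillin-rich matrix. The treatment added a protein and no RNA, so the TGFB2 reads came from the cells' own transcripts.

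The values are normalized counts, the reads of a gene divided by 1 size factor per library. They are not corrected for transcript length, so their levels do not rank the genes, and ratios and shares between genes are compared only between libraries. The untreated libraries held 40044240 to 57228675 counted reads and the treated ones 39184554 to 46634539. In normalized counts, 3 reads, used as a floor, were worth 2.02 to 3.60. The members were counted with 121 to 55739 reads per library, so all were well above this floor. Of 10 tested genes listed as known TGF-β targets, 8 were called higher and none lower, against 6.83% and 7.31% of all tested genes. FN1 rose by 3.30 on the log2 scale (standard error 0.44, adjusted p from limma 0.00596), PMEPA1 by 3.06 (0.56, 0.0143) and ACTA2 by 2.27 (0.21, 0.00269). COL1A1 lay between 106716 and 931747 normalized counts in untreated and between 1268300 and 2042180 in treated libraries (adjusted p from limma 0.0172). The calls of PMEPA1 and COL1A1 were lost without horse W, and that of COL1A1 also without D.

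The untreated library of horse J stood apart from the others. It had the most counted reads of all libraries, 57228675. FN1, COL1A1 and COL1A2 together made up 0.88% of its normalized counts, against 2.19% to 6.27% in the other untreated libraries. The mean correlation of untreated J with the other untreated libraries was 0.932, where those of D, L and W had 0.951 to 0.957. It had the lowest untreated value by over 2-fold in 761 tested genes, TGFB3 and LTBP4 among them, against 153 to 223 genes for each of the other 3. It also had the highest untreated value by over 2-fold in 708 tested genes, against 104 to 285 for the others. The summed normalized counts of leukocyte markers were 2944 in it, 676 to 1191 in the other untreated libraries and 532 to 874 in the treated ones. This sum covers 7 of 8 listed markers, since CD14 had no row. CD68 had 2437 normalized counts in untreated J. PTPRC, the common leukocyte antigen CD45, reached 110 and the T cell gene CD3E 112 in that library. CD3E had no read in any treated library, which allows up to 3.60 normalized counts, and none in untreated D or L either. Markers of mesenchymal stem cells were present in all libraries (5 of 5 listed), with a median log2 fold change of -0.08. THY1, which encodes the stromal surface marker CD90, was called lower by 2.21 on the log2 scale. ITGB1 had 0.91 (adjusted p 0.0159), CD44 0.43 (0.135), NT5E -0.08 (0.735) and ENG -0.42 (0.0409), and none of these was called. Of the leukocyte genes, ITGB2 was called lower (adjusted p from limma 0.0347, 0.256 without the block), a call that held without J but was lost without D, L or W, and the other 5 tested were not called. Endothelial markers (2 of 5 with a row) summed to 7.10 to 26.3 normalized counts in untreated and 30.0 to 55.7 in treated libraries, with KDR called higher except without D, and erythroid and platelet markers (3 of 7, none called) to 481 to 639 and 389 to 499. The estimates of the 7 genes, their ratios and the counts of called genes in the lists are therefore given with and without horse J. The part of these marker levels in the results was not tested.

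To compare the conditions, limma was fitted on log2(normalized count + 1) over 14907 tested genes. The horse was a block, which means that each treated library was set against the untreated library of the same animal. A gene was called when its Benjamini-Hochberg adjusted p was under 0.05 and its log2 fold change exceeded 1 in size. TGFB2 and LTBP1 were higher in treated BM-MSCs, and the other 5 members were not called. These 2 of 7 compare with 14.1% of all tested genes, of which 6.83% were called higher and 7.31% lower. Without the block, the same 2 members were called, against 11.5% of the tested genes. All treated libraries lay on one side of all untreated ones for TGFB2 and LTBP1, again 2 of 7, and for 27.8% of the tested genes. The RNA is that of whole cultures, so fewer cells of a type and less RNA per cell cannot be told apart.

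**Figure D1:**
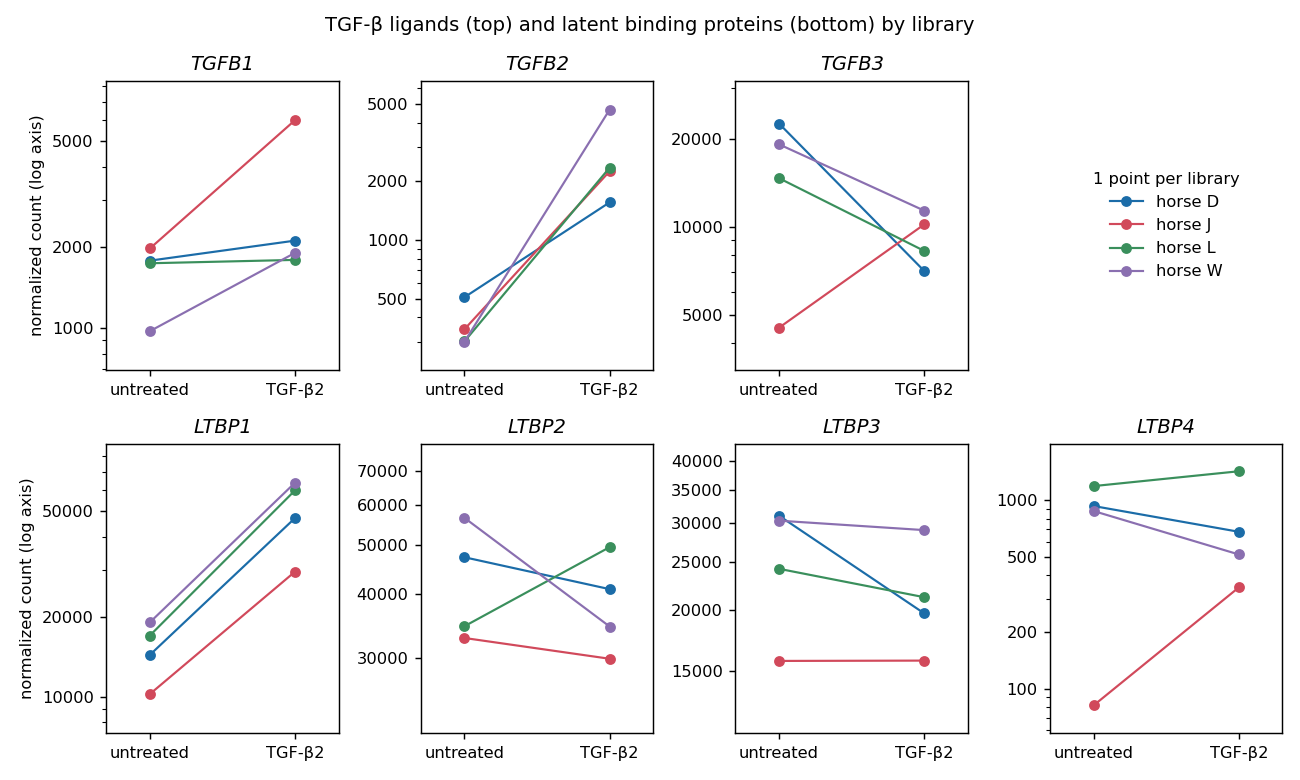
Normalized counts (log axis) of the 3 ligand genes in the top row and the 4 binding protein genes in the bottom row, with 1 point per library and a line joining the untreated and the TGF-β2-treated library of each horse. The lines of TGFB2 and LTBP1 go up in all 4 horses to levels above every untreated library, whereas those of TGFB3, LTBP2, LTBP3 and LTBP4 cross or point both ways.

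TGFB2 encodes the isoform that was added to the medium. Its normalized counts in untreated BM-MSCs were 508 in horse D, 348 in J, 302 in L and 300.3 in W. In treated BM-MSCs they were 1560 in D, 2254 in J, 2353 in L and 4672 in W. Every treated library thus lay above every untreated one, and the untreated libraries differed among themselves by only 1.69-fold. The increase within a horse was 3.07-fold in D, 6.46-fold in J, 7.78-fold in L and 15.5-fold in W. The horse with the lowest untreated level, W, had the highest treated level, and the horse with the highest untreated level, D, had the lowest treated level. On average TGFB2 rose by 2.81 on the log2 scale (standard error 0.36, 95% interval 1.91 to 3.70). Limma gave an adjusted p of 0.00562, or 0.00148 without the block. Of the tested genes, 1.58% had a higher log2 fold change. Without horse J the estimate was 2.84 (adjusted p 0.00809).

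TGFB1 encodes the most widely studied isoform, which platelets and leukocytes also carry. The untreated libraries held 1783 normalized counts in D, 1980 in J, 1743 in L and 971 in W. The treated libraries held 2119 in D, 5988 in J, 1795 in L and 1908 in W. All 4 horses had a higher value with TGF-β2, which was also so for 26.3% of tested genes, but the groups overlapped, and in L the values differed by 1.03-fold. Treated J lay over 2-fold above every other treated library. Limma's estimate on the log2 scale was 0.72 (standard error 0.27), and its 95% interval of 0.04 to 1.39 lay above 0 before adjustment for the number of genes. This interval uses limma's moderated variance, which draws on other genes, and the change between horses had an SD of 0.71. After adjustment, p was 0.0968 in limma, or 0.239 without the block, so TGFB1 was not called. Leaving out horse J gave 0.42 (adjusted p 0.142). Horse J also had the highest summed leukocyte markers of both groups, 2944 without and 874 with treatment. The treated sums were 532 in D, 802 in L and 765 in W, so treated J was not far above them. With treatment, PTPRC had a log2 change of -4.72 in J and CSF1R one of 0.84, and CD3E had no read. The part of leukocytes in the TGFB1 value of treated J was not tested.

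TGFB3, which encodes the isoform known from scarless fetal repair and palate closure, had opposite changes in the horses. Untreated BM-MSCs of D, L and W had 22691, 14724 and 19250 normalized counts, and untreated BM-MSCs of J had 4510. The treated libraries held 7062 in D, 10218 in J, 8279 in L and 11387 in W. Untreated levels spanned 5.03-fold and treated levels 1.61-fold, and horse J moved from the lowest of the untreated to the middle of the treated libraries. The log2 changes were -1.68 in D, -0.83 in L and -0.76 in W, against 1.18 in J. Their mean was -0.52 (standard error 0.45, 95% interval -1.64 to 0.59), and the adjusted p was 0.412, or 0.465 without the block. The spread of the change between horses, with an SD of 1.21, was wider than that of 94.1% of the tested genes. Leaving out horse J gave -1.09 (standard error 0.20, adjusted p from limma 0.0140), so that TGFB3 was then called lower. With J left out 3 of 7 members were called, against 16.4% of the tested genes.

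LTBP1, whose product tethers latent TGF-β to the matrix, had the most even change of the 7 genes. The untreated libraries held 14359 normalized counts in D, 10231 in J, 16983 in L and 19034 in W. The treated libraries held 46989 in D, 29538 in J, 59727 in L and 63816 in W. The order of the horses was J, D, L and W in both conditions, and each treated library lay above all untreated ones. The increase was 3.27-fold in D, 2.89-fold in J, 3.52-fold in L and 3.35-fold in W. LTBP1 rose by 1.70 on the log2 scale (standard error 0.10, 95% interval 1.45 to 1.95). Limma gave an adjusted p of 0.00121, or 0.00526 without the block. The SD of the change between horses was 0.12, and 11.6% of the tested genes had a smaller one. By log2 fold change, 3.79% of the tested genes were higher. Without horse J the estimate was 1.76 (adjusted p 9.18e-04).

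LTBP2, which binds fibrillin microfibrils but no latent TGF-β, was not called. Its untreated values were 47295 in D, 32786 in J, 34583 in L and 56552 in W. Its treated values were 40919 in D, 29835 in J, 49524 in L and 34529 in W. The value was lower in 3 horses and higher in L, and the groups overlapped. The mean log2 change was -0.13 (standard error 0.21, 95% interval -0.66 to 0.39), and the adjusted p was 0.653, or 0.715 without the block. A change of 2-fold in either direction therefore lay outside the interval. Leaving out horse J gave -0.13 (adjusted p 0.697).

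LTBP3, which like LTBP1 carries latent TGF-β out of the cell, was also not called. The untreated libraries held 31032 normalized counts in D, 15738 in J, 24209 in L and 30320 in W. The treated libraries held 19651 in D, 15762 in J, 21199 in L and 29010 in W. Horses D, L and W had lower values with TGF-β2, and in J the values differed by less than 1%. The mean log2 change was -0.23 (standard error 0.14, 95% interval -0.57 to 0.12), and the adjusted p was 0.257, or 0.573 without the block. It was -0.30 without horse J (adjusted p 0.165). With all libraries set to 1 common total of reads, which gave a median over all genes of -0.30, LTBP3 had -0.54 (adjusted p 0.0274) and was again not called, since the change was under 2-fold. Relative to that median the change was -0.24.

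LTBP4, whose product serves elastic fibre assembly besides binding latent TGF-β1, differed more between horses than between conditions. Untreated values were 932 in D, 81.5 in J, 1189 in L and 877 in W, a span of 14.6-fold. The value of untreated J rests on 121 reads, with an exact Poisson 95% interval of 67.6 to 97.3 that covers counting error only. Treated values were 680 in D, 345 in J, 1426 in L and 515 in W. Horse L was the highest and J the lowest in both conditions. The log2 changes were 2.07 in J and 0.26 in L, against -0.45 in D and -0.77 in W. Their mean was 0.28 (standard error 0.47, 95% interval -0.90 to 1.45), and the adjusted p was 0.685, or 0.850 without the block. Leaving out horse J gave -0.32 (adjusted p 0.277).

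**Figure D2:**
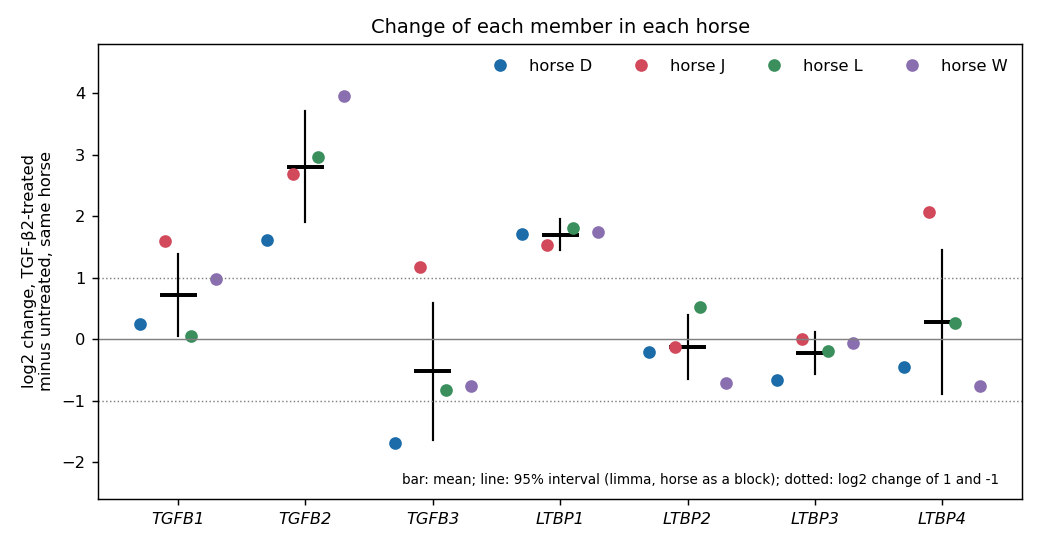
Log2 change of each of the 7 genes, treated minus untreated library of the same horse, with 1 point per horse, a bar for the mean and a line for the 95% interval from limma with the horse as a block. The points of LTBP1 lie close together between 1.53 and 1.81 and those of TGFB2 spread from 1.62 to 3.96. Horse J is the highest point for TGFB1, TGFB3, LTBP3 and LTBP4.

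Horse J went against the other 3 in many other genes too. In J alone, 8.62% of the tested genes were higher with treatment and lower in the other 3 horses, TGFB3 and LTBP3 among them. For horses D, L and W in the same role, the shares were 2.42%, 3.94% and 2.67%, with LTBP2 among those of L. The LTBP3 values of J were almost equal, so its place in this count rests on a difference under 1%. The reverse, lower in J alone and higher in the other 3 horses, held for 7.93% of the tested genes. For D, L and W the shares of the reverse were 2.13%, 3.58% and 2.66%, and no member had it in any horse.

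Ratios between members within a library do not depend on the size factor and were used to see which genes changed unequally. Transcript length cancels in the change of a ratio. Since 4 horses allow no exact two-sided sign-flip p below 0.125, these tests could not pass 0.05. A permutation over the 8 libraries that sets the pairing aside can reach 0.0286.

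The TGFB2 to TGFB1 ratio was 0.285 in D, 0.176 in J, 0.173 in L and 0.309 in W without treatment. It was 0.736 in D, 0.376 in J, 1.31 in L and 2.45 in W with TGF-β2. It was thus higher in every treated library than in any untreated one, with a mean log2 change of 2.09 (SD 1.00, n = 4; exact sign-flip p = 0.125; exact permutation p over 8 libraries 0.0286). The TGFB2 to TGFB3 ratio was 0.0224, 0.0772, 0.0205 and 0.0156 in untreated D, J, L and W, and 0.221, 0.221, 0.284 and 0.410 in their treated libraries. Horse J had the highest untreated ratio, and the 4 treated ratios lay within 2-fold of each other. The mean log2 change was 3.33 (SD 1.35, n = 4), with the same exact p-values of 0.125 and 0.0286. The TGFB3 to TGFB1 ratio was lower with TGF-β2 in all 4 horses, J included, from 2.28 to 19.8 without and from 1.71 to 5.97 with treatment. Its mean log2 change was -1.24 (SD 0.72, n = 4; exact sign-flip p = 0.125; exact permutation p over 8 libraries 0.171), and the groups overlapped.

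Among the binding proteins, the LTBP2 to LTBP1 ratio was 3.29, 3.20, 2.04 and 2.97 in untreated D, J, L and W. In the treated libraries it lay between 0.541, in W, and 1.01, in J, below every untreated value. The log2 change was -1.83 (SD 0.49, n = 4; exact sign-flip p = 0.125; exact permutation p over 8 libraries 0.0286). The LTBP3 to LTBP1 ratio had a range of 1.43 to 2.16 without and 0.355 to 0.534 with treatment. Its log2 change was -1.93 (SD 0.35, n = 4), with the same exact p-values of 0.125 and 0.0286. The LTBP4 to LTBP1 ratio was lower in 3 of 4 horses and higher in J, with a mean log2 change of -1.42 (SD 1.37, n = 4; exact sign-flip p = 0.25; exact permutation p over 8 libraries 0.143). These were 6 ratios, and the Benjamini-Hochberg adjusted exact permutation p over 8 libraries was 0.0429 for the 4 ratios whose groups did not overlap and 0.171 for the other 2. The adjusted exact sign-flip p was 0.15 for 5 ratios and 0.25 for LTBP4 to LTBP1. Without horse J the mean log2 changes were 2.42 for TGFB2 to TGFB1, -1.51 for TGFB3 to TGFB1 and 3.93 for TGFB2 to TGFB3. They were -1.89, -2.06 and -2.08 for LTBP2, LTBP3 and LTBP4 to LTBP1.

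**Figure D3:**
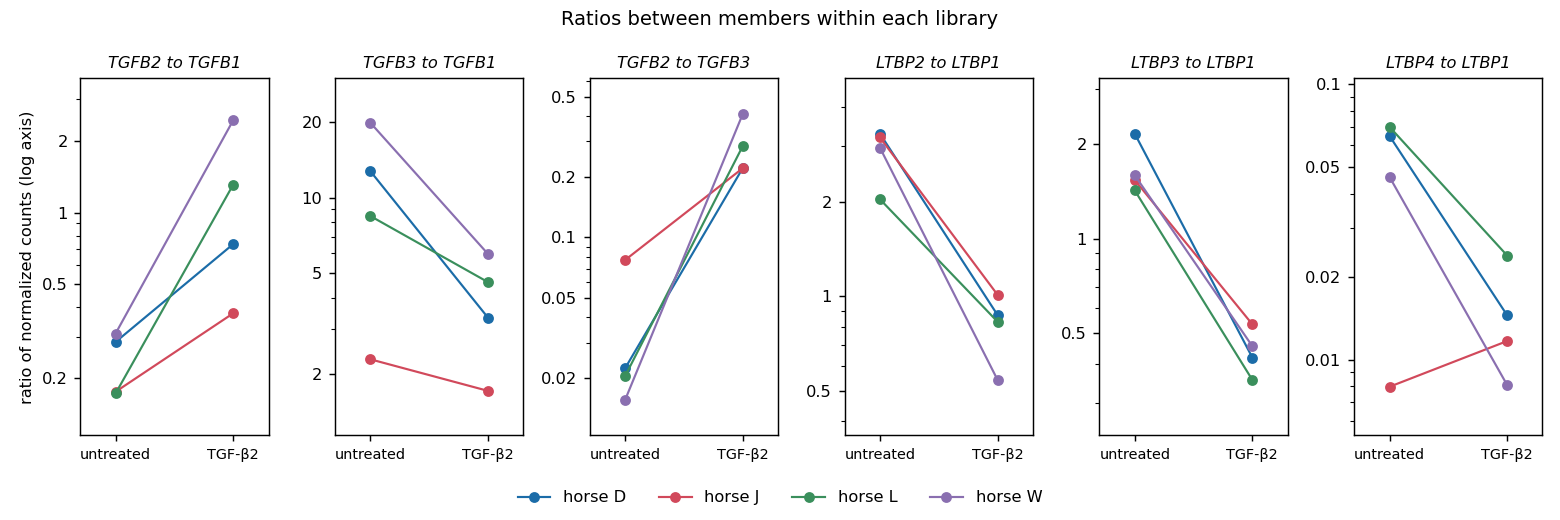
Ratios of normalized counts between members (log axis) in the untreated and TGF-β2-treated library of each horse, 1 panel per ratio. The ratios of TGFB2 to both other ligand genes are higher, and those of LTBP2 and LTBP3 to LTBP1 lower, with treatment in all 4 horses, while for LTBP4 to LTBP1 the line of horse J points the other way.

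As shares of the ligand reads, which are not shares of molecules, TGFB2 made up 1.46% to 5.09% of the 3 ligand genes' normalized counts in untreated and 12.2% to 26.0% in treated libraries. The share of TGFB3 was 66.0% to 93.8% and 55.4% to 66.6%, and the lowest untreated share was that of J. The share of TGFB1 was 4.73% to 29.0% and 10.6% to 32.4%. LTBP1 made up 15.3% to 22.1% of the normalized counts of the 4 binding protein genes in untreated and 39.1% to 49.9% in treated libraries. The shares of LTBP2 were 44.9% to 55.7% and 27.0% to 39.5%, so those groups did not overlap either. LTBP3 had 26.7% to 33.1% and 16.1% to 22.7%, and LTBP4 0.138% to 1.55% and 0.403% to 1.08%. A share is also lower when another gene in the sum is higher, and LTBP2 and LTBP3 themselves were not called. The summed ligand counts overlapped between the groups, at 6838 to 24982 without and 10741 to 18459 with treatment. Those of the binding protein genes also overlapped, at 58836 to 106783 without and 75480 to 131875 with treatment.

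The genes that process, store and release latent TGF-β were taken as a list of 33, of which 32 had a row and were tested. ITGB6, a subunit of an epithelial integrin that activates TGF-β, had none. Of the 32 genes, 8 were called higher, 3 lower and 21 not. Over all tested genes, 6.83% were called higher and 7.31% lower. The list's median log2 fold change was 0.37, against 0.01 for all tested genes. Without horse J the list had 8 called higher and 6 lower, without D 4 and 2, without L 9 and 2, and without W 6 and 1. The calls of FN1, FBN1, ASPN, ITGB3 and ITGB8 held with any 1 horse left out.

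Genes of the matrix scaffold on which LTBPs are laid down were among those that rose. FN1, which encodes fibronectin, lay between 101984 and 646088 normalized counts in untreated and between 2308280 and 4315260 in treated libraries. FBN1, the gene of fibrillin-1, rose by 1.96 on the log2 scale (standard error 0.13). Its adjusted p from limma was 0.00135, or 0.0465 without the block. Its groups overlapped, at 18025 to 81779 and 69434 to 289095 normalized counts, because the horses differed by over 4-fold in each group. FBN2 was not called, at 0.93 with an adjusted p of 0.161. The small proteoglycan genes BGN and ASPN, whose products bind TGF-β, rose by 1.49 and 1.70, and the call of BGN was lost without D (adjusted p 0.0525). For ASPN the adjusted p from limma was 0.00718 with and 0.190 without the block. DCN, the gene of decorin, was not called, at -1.15 with an adjusted p of 0.243, and was higher in J alone; without J it was called lower at -1.95 (adjusted p 0.0190).

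Integrin subunits changed in both directions. ITGB3, the partner of αV in the vitronectin receptor, lay at 1013 to 1865 normalized counts in untreated and at 7974 to 10419 in treated libraries. It rose by 2.71 on the log2 scale (standard error 0.10, adjusted p from limma 6.51e-04), and single horses ranged from 2.48 to 2.98. ITGAV itself rose by 1.32 (standard error 0.27, adjusted p 0.0191), but the change was 2.36 in horse J and 0.80 to 1.12 in the other 3. Without J the estimate was 0.97 (adjusted p 0.00338), under the fold threshold, and without D, L or W the adjusted p was 0.0509 to 0.0724, so this call rests on all 4 horses. ITGB8, whose product with αV activates latent TGF-β held by GARP or NRROS, fell by 2.49 (standard error 0.31, adjusted p 0.00520). Its normalized counts were 161 to 429 without and 32.2 to 82.4 with treatment. ITGB1 passed the adjusted p with 0.91 (0.0159) but not the fold, and ITGB5 was at 0.13 with an adjusted p of 0.802. LRRC32, the gene of GARP, was lower in 3 of 4 horses at -0.36, with an adjusted p of 0.123.

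Among proteases and other activators, THBS1, the gene of thrombospondin-1, rose by 2.38 on the log2 scale (standard error 0.36, adjusted p from limma 0.00865), and without D its adjusted p was 0.0510. PLAUR, the urokinase receptor gene, rose by 1.49, and PLAU, the gene of urokinase itself, fell by 1.19 with an adjusted p of 0.0426. In horse J the PLAU values were almost equal, with a log2 change of -0.01. The call of PLAU held without J (-1.59, adjusted p 0.00405) and was lost without D, L or W, and that of PLAUR was lost without D or W. MMP9, a gelatinase gene, fell by 2.15 (standard error 0.45, adjusted p 0.0209), a call lost without D or W. FURIN, whose product cuts the TGF-β precursor, was higher in 4 of 4 horses with a log2 fold change of 0.67 (adjusted p 0.00589), under the fold threshold. BMP1, whose product cuts LTBP1, had 0.99 with an adjusted p of 0.0176. TGM2, a transglutaminase that crosslinks LTBP1 to the matrix, had -0.99, with an adjusted p of 0.00315 with and 0.598 without the block. MMP2 and MMP14 were lower in D, L and W and higher in J, as TGFB3 was, and their adjusted p was 0.723 and 0.317. Without J, MMP14 was called lower at -1.04 (adjusted p 0.00751).

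Of the 10 receptor and SMAD genes, none was called higher and 4 were called lower, against 6.83% and 7.31% of all tested genes. Their median log2 fold change was -0.72. TGFBR3, which encodes betaglycan, the co-receptor that presents TGF-β2 to the signalling receptors, lay between 4594 and 13878 normalized counts without and between 137 and 181 with treatment. On the log2 scale it fell by 5.50 (standard error 0.24, adjusted p from limma 7.87e-04). SMAD3, a receptor-activated transcription factor gene, fell by 2.51, ACVRL1, a type I receptor gene, by 2.45 and TGFBR2, the type II receptor gene, by 1.09. TGFBR1 was not called, at 0.32 with an adjusted p of 0.290. The count of 4 lower was also reached without the block and without horse D, J or L in turn. Without W there were again 4, with SMAD6 in place of TGFBR2.

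**Figure D4:**
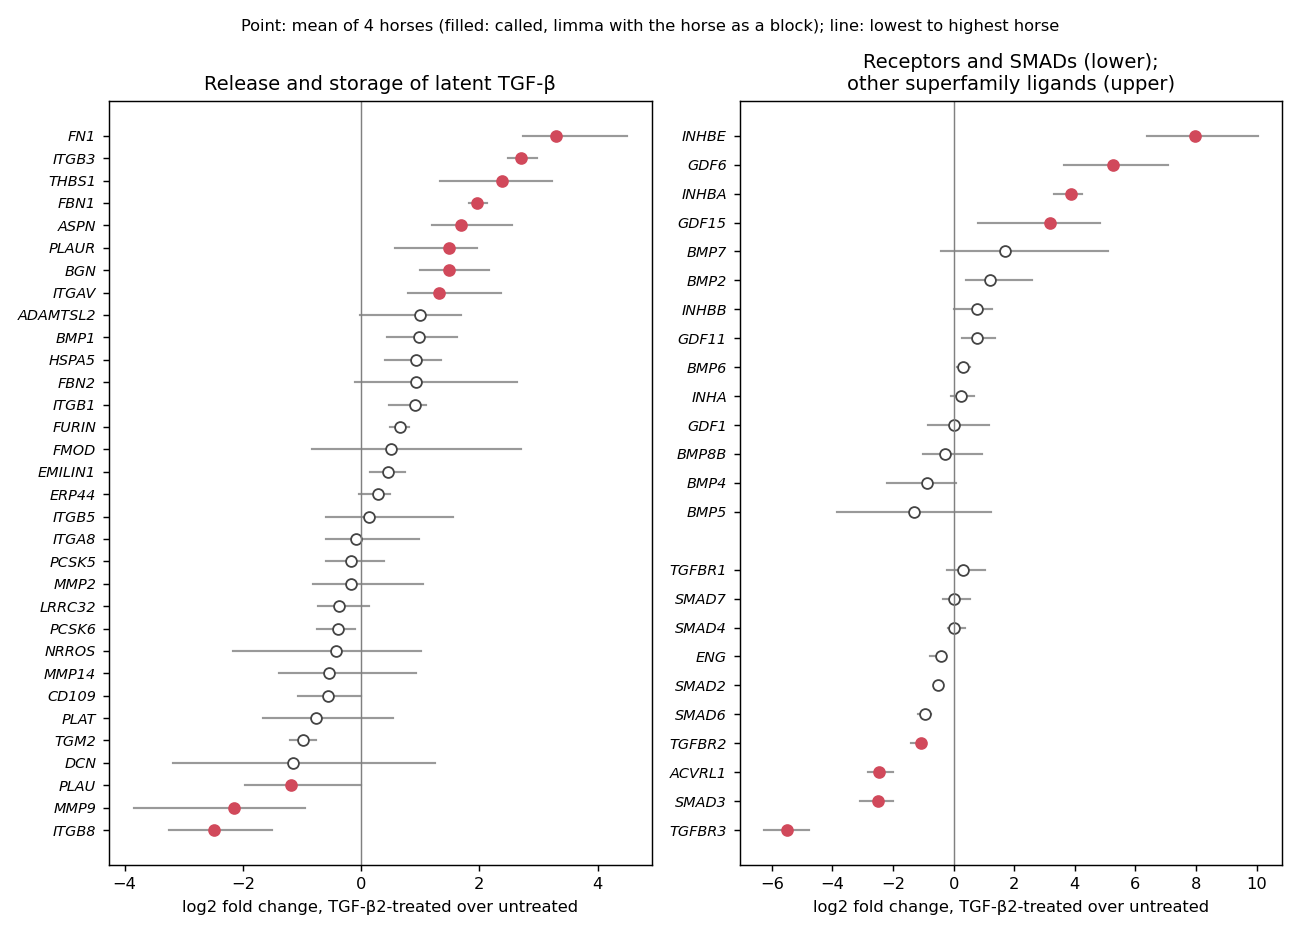
Log2 fold change of the genes that process, store and release latent TGF-β (left) and of other ligands of the superfamily and the receptor and SMAD genes (right, upper and lower block), with a point for the mean of 4 horses, filled where called, and a line from the lowest to the highest horse. On the left 8 genes are called higher and 3 lower, and on the right 4 ligand genes are called higher and 4 receptor or SMAD genes lower. Among all tested genes, 6.83% were called higher and 7.31% lower.

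Of 30 listed genes for other ligands of the superfamily, 14 had a row. Of these, 4 were called higher and none lower, against 6.83% and 7.31% of all tested genes. INHBA, the gene of the activin A subunit, lay between 2378 and 5417 normalized counts in untreated and between 38782 and 76170 in treated libraries, and rose by 3.86 on the log2 scale (standard error 0.17, adjusted p from limma 7.87e-04). GDF6 lay at 42.4 to 213 without and at 2501 to 5839 with treatment. INHBE and GDF15 had untreated values of 0 to 17.0 and 0 to 11.3, and treated values of 193 to 1493 and 20.2 to 64.2. Their fitted log2 fold changes, 7.97 and 3.17, depend on the pseudocount. BMP2, BMP4, BMP6 and INHBB were among the 10 not called. The list's median was 0.77. Without horse J, 4 were called higher and 1, BMP5, lower. Without L or W the call of GDF15 was lost.

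LTBPs are also part of the fibrillin microfibril and the elastic fibre, and 18 of 20 listed genes of these structures had a row. Of the 18, 5 were called higher and 1 lower, against 6.83% and 7.31% of all tested genes. Without horse J there were 5 and 2, and without W 3 and 1. MFAP4, the gene of a microfibril-associated protein, lay at 22.2 to 493 normalized counts in untreated and at 1621 to 10492 in treated libraries. ELN, which encodes elastin, rose by 3.28 on the log2 scale (standard error 0.64, adjusted p 0.0169), a call lost without D or W. EFEMP1, the fibulin-3 gene, fell by 3.15 (standard error 0.45, adjusted p 0.00703). The median of the list was 0.47.

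The genes whose log2 normalized counts followed a member most closely over the 8 libraries were named by Pearson's r, as a description, since all genes share the libraries and the treatment. The pattern of LTBP1 was most like those of TPM1 (r = 0.992), TMEM120B (0.989) and PDLIM7 (0.988). That of TGFB2 was most like GAS2L1 (0.988), RPN2 (0.978) and SFRP5 (0.978). That of TGFB3, in which horse J stands low without treatment, was most like AK1 (0.984), RUNX2 (0.967) and LOC100071601 (0.966). LTBP4 was closest to SSC5D (0.985), BNC2 (0.978) and FEM1B (0.975). LTBP3 was closest to ZNF662 (0.990), BRMS1L (0.980) and NFIL3 (0.970), and TGFB1 to GEMIN4 (0.967), FBRS (0.953) and RRP36 (0.951). LTBP2 had the lowest values, with PARD6B (0.924), ESCO1 (0.923) and C3H16orf46 (0.923).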

How the data were processed

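The authors trimmed the reads with Trimmomatic 0.36, mapped them to EquCab 3.0 with STAR 2.5.2b, counted unique hits per gene with featureCounts of Subread 1.5.2 and, after DESeq2, deposited normalized counts, a signal that is never negative. The table held 15267 rows, of which 1 without a gene name (0.0281% to 0.0531% of the values of a library) was left out. Dividing the deposited signal of a library by what 1 read is worth in it gave whole numbers, within 0.01, for 100% of the values, and these reads were used for depth and count tests. Log2(normalized count + 1) was fitted with limma 3.58.1 (lmFit, eBayes with trend) in R 4.3.3, for the genes that reached 10 normalized counts in 4 or more of the 8 libraries. This scale understates changes of low genes. The horse was a block: the labels put both libraries of a letter in 1 animal, and their deviations from the group means correlated at 0.386 to 0.609 (4 pairs). Alternatives were no block, pseudocounts 0.5 and 5, no filter or one at 50, total, upper-quartile and TMM scaling, no trend, DESeq2 1.42.0, edgeR 4.0.16, stricter or no thresholds, and each horse left out. The 6 ratios were to be tested in limma, but subtracting TGFB1 or TGFB3 from every gene made the prior degrees of freedom infinite. Exact sign-flip and permutation tests were therefore chosen after the values were seen, and their p-values were adjusted with scipy 1.17.1. All 7 members were named, with every called gene of the release and storage list and the 4 called genes with the largest change of each other list, and some further genes of these lists were named after their values were seen. The members and lists were chosen with earlier results of these data known. One item of these lists is not reported here. Procedures were tested on simulated data. No sequences were used here, and coordinates only of the RefSeq assembly TB-T2T, for the order of the genes. PCR copies are not independent molecules, so the Poisson interval and the floors cover no more than counting error. The limma intervals rest on the spread of the change between horses, moderated toward that of other genes of like level. The prior degrees of freedom were 2.62. An interval can thus be narrower or wider than the spread of its gene alone would give.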

Additional observations from a re-analysis of the deposited data

Results flagged for a closer look

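In sets of 4 libraries or 4 horses, 1 value lay far from the other 3 by Dixon's test in 6 of the 96 sets examined, which cover the 7 members and 25 further genes taken by the naming rule. Chance gives about 1 in 20. Among the members, TGFB1 in the treated library of horse J (5988 normalized counts) and LTBP4 in the untreated library of J (81.5) were such values. ITGAV was at 4388 normalized counts in untreated J, below the other untreated libraries. The log2 change of horse J was 4.50 for FN1, the largest of the 4 horses, and -1.36 for EFEMP1, the smallest in size. GDF6 was at 5839 normalized counts in the treated library of horse L. Of these 6 values, 5 belong to horse J, whose untreated library also stood apart over all genes.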

How the results depend on the processing

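TGFB2 and LTBP1 were called under all 16 alternatives, with log2 fold changes of 2.42 to 3.20 and 1.39 to 1.76. TGFB1 and LTBP3 kept their direction and were called under none, although DESeq2 with the horse gave TGFB1 an adjusted p of 0.0438 at 0.71. With each horse left out, TGFB3 ranged from -1.09, without J, to -0.14, LTBP2 from -0.35 to 0.0577, positive without W alone, and LTBP4 from -0.32, without J, to 0.63. Over all alternatives LTBP2 was lowest under total scaling, at -0.45. LTBP4 was also negative under total scaling (-0.0335, which is 0.27 relative to the median of all genes) and with DESeq2 without the horse (-0.0539). Without the replicate block, which gave 1709 called genes, no call of a member changed. The called genes numbered 2108, or 1080 to 2442 with each horse left out (1080 without W, 1173 without D), 1116 at an adjusted p under 0.01 and 4610 with no fold threshold. Total scaling called 704 genes higher and 1846 lower, 27.6% higher against 48.3%. Ratios kept their direction throughout. Their moderated test without trend was not run. With J left out, the lists of release and storage, other ligands and microfibrils had 6, 1 and 2 genes called lower instead of 3, 0 and 1. Other ligands also had 1 under total scaling. The release and storage list had 4 called higher instead of 8 without D and 1 lower without W, and the microfibril list 3 higher instead of 5 without W. The causes were not tested. Changes under about 2-fold in LTBP4 and TGFB3 could not be resolved with 4 horses, given their intervals.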

Other observations

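In the gene order of the RefSeq horse assembly TB-T2T, which differs from the build of the reads, TGFB1 and LTBP4 lie on the same chromosome with 21 protein-coding genes between them, and TGFB3 and LTBP2 on another with 22 between them. Their log2 fold changes were 0.72 and 0.28 for the former pair and -0.52 and -0.13 for the latter, and none of these 4 genes was called. Of the other list genes, 7 of the 32 for release and storage were higher in horse J and lower in the other 3 horses, as TGFB3 was: PCSK5, ITGB5, MMP2, MMP14, PLAT, DCN and CD109. Over all tested genes this share was 8.62%. In the other lists it was 1 of 10 receptor and SMAD genes, 0 of 10 known targets, 2 of 14 other ligands and 2 of 18 microfibril genes. The CD109 values of J were almost equal, with a log2 change of 0.005, unlike those of TGFB3.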
